A study of Homo sapiens and Mus musculus with 27 samples.

Results

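The genes of the Eph, ephrin, semaphorin, plexin, neuropilin, slit, roundabout, netrin and UNC5 families were followed through the 9 groups of a breast cancer cell line study. Members were chosen by symbol alone: EPHA and EPHB receptors, the ephrins EFNA and EFNB, the semaphorins SEMA3 to SEMA7, plexins A to D, NRP1 and NRP2, SLIT1 to SLIT3, ROBO1 to ROBO4, NTN1 to NTN5 and UNC5A to UNC5D. This gave 68 genes of 59453 in the human tables and the same 68 symbols of 55367 in the mouse table: 14 Eph receptors, 8 ephrins, 20 semaphorins, 9 plexins, 2 neuropilins, 3 slits, 4 roundabout receptors, 4 netrins and 4 UNC5 receptors. RNA was measured in LM2, a lung-metastatic derivative of the human line MDA-MB-231, and in the mouse line 4T1. Each line had 3 libraries of unaltered control cells, 3 labelled WT MKL1 OE (overexpressed wild-type MKL1) and 3 labelled caMKL1 OE, all made from polyA-selected RNA. MKL1, whose gene is listed as MRTFA, is an actin-regulated coactivator of the transcription factor SRF. The genotype field names the 3 caMKL1 samples of a line caMKL1, caMKL2 and caMKL3, whereas their titles and treatment field all read caMKL1. Another experiment compared LM2 cells without LifeAct (negative), with low and with high expression of LifeAct, a peptide that binds filamentous actin, in 3 libraries each of rRNA-depleted total RNA. The labels give no promoter, vector or clone for any construct, and do not say that replicates came from separate cultures, so p-values measure the spread between these libraries, which may be technical.

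These families are cell-surface and secreted signals first known from the wiring of axons. Ephrins are membrane-bound ligands of the Eph receptor tyrosine kinases, and contact between them usually makes cells part or hold apart. Semaphorins signal through plexins; most secreted class 3 semaphorins also need a neuropilin, a co-receptor that NRP1 and NRP2 share with vascular endothelial growth factors. Slits bind roundabout receptors, and netrins bind UNC5 receptors and DCC. In carcinoma cells the same proteins are studied for their part in adhesion, migration and vessel growth.

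The LM2 libraries with MKL1 constructs held 22147429 to 32147377 assigned reads each. Those of 4T1 held 21896459 to 29370432, and the LifeAct libraries 15581289 to 23678322. The overexpressed gene followed the labels: MRTFA stood at 10.3 to 11.5 CPM (read counts scaled to the library total with TMM factors) in LM2 control libraries, 140.2 to 181 in MKL1 and 175 to 257 in caMKL1 libraries. In 4T1 it stood at 37.0 to 41.6, 2087 to 2199 and 596 to 679 CPM, and in the LifeAct groups at 25.7 to 31.1, 30.7 to 37.0 and 38.5 to 43.4 CPM. No label gives the construct's sequence, so how its reads were counted is not known. CDH1, the epithelial cadherin, averaged 0.103 CPM in LM2 control libraries. In LM2, replicate 1 of the caMKL1 group stood apart from its group's other libraries. The MKL1 libraries of LM2 all differed from each other, replicate 1 most. A chi-square per gene reached 34.8 to 48.4 against replicate 1 of these groups. The other pair gave 20.2 in the MKL1 group and 2.96 in the caMKL1 group, and the LM2 control pairs gave 2.22 to 7.45. The 4T1 pairs gave 1.57 to 6.54 and the LifeAct pairs 1.40 to 4.47, and no libraries were identical.

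Levels differed by family and by line. Summed over a family and given per kilobase of exon (FPKM, the scale that allows genes to be set side by side), LM2 control libraries held semaphorins at 57.7 ± 2.61, neuropilins at 36.6 ± 2.79 and Eph receptors at 32.3 ± 1.30 (mean ± SD, n = 3). Slits stood at 1.60 ± 0.118 FPKM and UNC5 receptors at 0.0719 ± 0.0136 FPKM in the same libraries. The 4T1 control libraries had more UNC5 receptor RNA, 37.5 ± 1.76 FPKM, nearly all of it Unc5b (37.4 ± 1.75 FPKM), and little roundabout RNA, 0.383 ± 0.0509 FPKM against 14.1 ± 0.788 in LM2. By FPKM the leading members of LM2 control libraries were NRP1 at 35.8 ± 2.74, SEMA3C at 25.8 ± 2.99, EPHA2 at 22.2 ± 0.836 and ROBO1 at 10.7 ± 0.407. In LifeAct-negative cells they were EPHA2 at 104 ± 4.44, NRP1 at 89.0 ± 0.524 and PLXNA1 at 49.7 ± 3.31. In 4T1 controls they were Plxnb2 at 61.4 ± 3.54 and Epha2 at 53.5 ± 3.11, followed by Nrp2 at 37.7 ± 0.486 and Unc5b, which do not differ beyond their spread. The 3 experiments were normalised separately and the LifeAct libraries were made from rRNA-depleted RNA, so levels set side by side across them are descriptions only. In bulk RNA, fewer cells with a transcript and less of it per cell cannot be told apart.

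EPHA7, a receptor for ephrin-A ligands, was low in LM2 and listed at 0 counts in all 9 4T1 libraries, where 3 counts over a group of 3 libraries would be 0.0358 to 0.0430 CPM. In LM2 it stood at 9.01, 7.06 and 9.24 CPM in the control libraries, 2.54, 2.99 and 3.10 CPM in the MKL1 libraries and 2.58, 2.87 and 3.18 CPM in the caMKL1 libraries. Both overexpressing groups lay below every control library, and the fall was 1.55 ± 0.17 on the log2 scale (adjusted p = 1.96e-05) with MKL1 and 1.56 ± 0.18 on the log2 scale (adjusted p = 1.19e-06) with caMKL1. Those groups overlapped each other, with a difference of -0.01 ± 0.19 (adjusted p = 0.979) on the log2 scale. In the LifeAct experiment EPHA7 stood at 3.79, 2.98 and 2.44 CPM in the negative libraries, 1.81, 1.90 and 1.35 CPM in the low libraries and 1.13, 1.44 and 1.93 CPM in the high libraries. All 6 LifeAct libraries lay below the negative ones, the fall being 0.89 ± 0.23 on the log2 scale (adjusted p = 0.00222) in low and 1.05 ± 0.24 on the log2 scale (adjusted p = 0.000306) in high cells. The human gene spans chr6:93240020-93419687 on the minus strand in the annotation used by the authors (GRCh38), and the mouse gene chr4:28813131-28967499 on the plus strand (GRCm38).

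EFNB1, SLIT2, EPHA2 and PLXND1, whose RNA moved in the same direction under caMKL1 in both lines, are shown with the 250 bases before their transcription start, since transcription factors such as SRF are studied at promoters. They were picked by name, without a rule, from the 6 members that rose and the 16 that fell in both lines. EFNB1 and SLIT2 rose, and EPHA2 and PLXND1 fell. The windows come from RefSeq (GRCh38.p14), run 5′ to 3′ on the gene's strand and hold 0 bases of any exon in the count table. They lie at chrX:68828771-68829020 (plus strand), chr4:20251655-20251904 (plus), chr1:16156070-16156319 (minus) and chr3:129606677-129606926 (minus). Capitals mark GGGCGG, the core of a GC box, and in EPHA2 also GGAATG, the core of a TEAD site, on either strand, overlapping matches included.
EFNB1: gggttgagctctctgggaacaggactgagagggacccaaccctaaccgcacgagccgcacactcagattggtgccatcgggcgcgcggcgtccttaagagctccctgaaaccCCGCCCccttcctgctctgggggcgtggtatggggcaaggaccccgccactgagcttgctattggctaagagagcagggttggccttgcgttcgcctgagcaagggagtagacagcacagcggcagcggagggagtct
SLIT2: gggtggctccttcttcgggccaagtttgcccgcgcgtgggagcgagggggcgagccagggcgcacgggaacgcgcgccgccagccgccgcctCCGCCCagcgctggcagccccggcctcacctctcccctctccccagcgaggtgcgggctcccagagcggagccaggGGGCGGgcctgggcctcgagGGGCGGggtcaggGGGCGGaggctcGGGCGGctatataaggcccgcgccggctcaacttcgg
EPHA2: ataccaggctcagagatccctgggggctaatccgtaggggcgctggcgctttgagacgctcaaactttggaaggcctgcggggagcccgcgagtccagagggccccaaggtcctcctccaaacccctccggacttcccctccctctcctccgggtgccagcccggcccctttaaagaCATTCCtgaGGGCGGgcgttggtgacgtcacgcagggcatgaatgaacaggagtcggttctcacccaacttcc
PLXND1: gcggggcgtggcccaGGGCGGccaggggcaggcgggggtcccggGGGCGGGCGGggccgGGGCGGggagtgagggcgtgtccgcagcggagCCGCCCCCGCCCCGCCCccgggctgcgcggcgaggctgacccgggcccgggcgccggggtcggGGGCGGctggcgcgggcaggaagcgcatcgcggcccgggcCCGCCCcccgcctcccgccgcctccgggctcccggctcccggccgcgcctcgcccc
The windows held 1, 5, 2 and 9 matches in that order, at a GC content of 63.6, 77.2, 63.2 and 88.8%. Windows were matched by symbol for 58 of the 68 members; EFNB3, EPHA10, NRP1, NTN1, NTN3, SEMA3A, SEMA6A, SEMA6B, UNC5B and UNC5D had no entry. The CArG box, the SRF site, was in 0 of the 58 and in 1.14% of all 27305 windows. TGANTCA, an AP-1 site, was in 1 (PLXNC1) against 6.6% of all windows, and GGAATG in 3 (EPHA2, PLXNB3 and SEMA4A) against 11.9%. GGGCGG was in 43 members, 74.1%, against 42.3% of all windows. A match says only that these letters lie in the window.

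**Figure D1:**
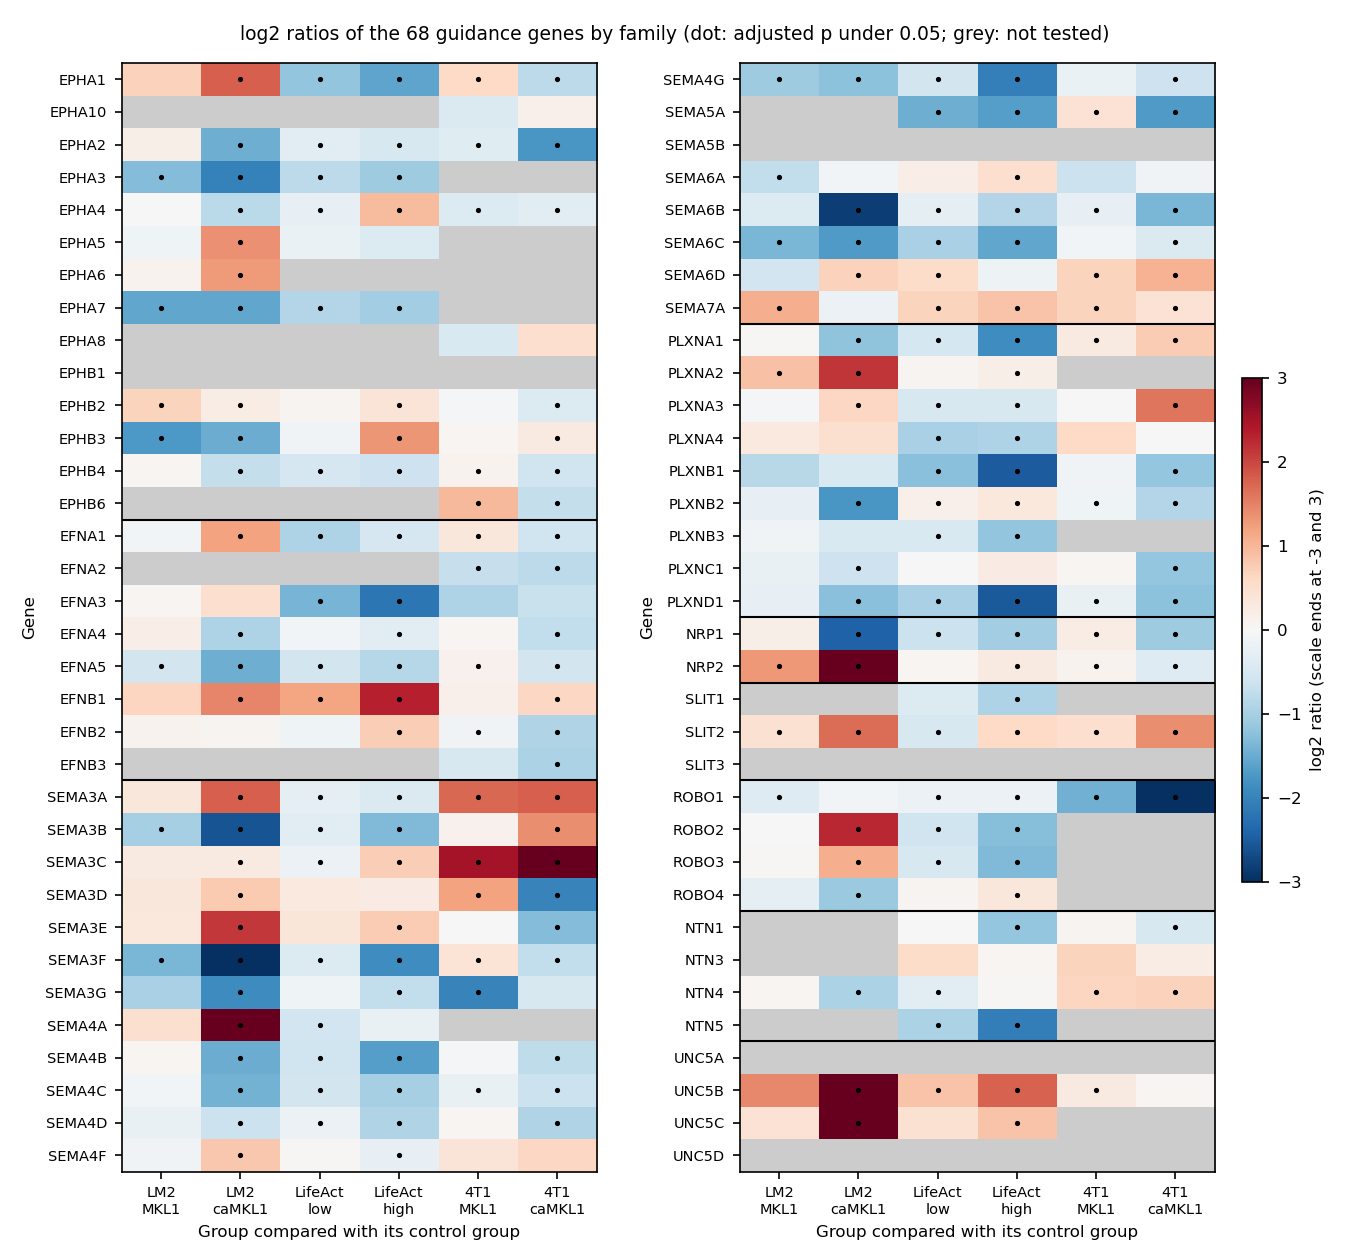
Heat map of the log2 ratio of each of the 68 guidance genes (top to bottom, grouped by family) in each group compared with its own control group (left to right); colours run from -3 (blue) to 3 (red), a dot marks an adjusted p under 0.05 and grey marks genes not tested. The LifeAct high and 4T1 caMKL1 strips hold more blue dots than red ones, 34 against 16 and 30 against 11. Over all genes 35.2% were lower and 36.0% higher in LifeAct high, and 35.8% lower and 36.2% higher in 4T1 caMKL1.

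With wild-type MKL1 in LM2, 15 of 53 guidance genes tested changed. Among those called and above 2 CPM in at least 1 group, NRP2 had the largest rise, and EPHA7, SEMA3F and EPHA3 the largest falls. Of the 53 members tested, 5 rose and 10 fell at an adjusted p under 0.05 (edgeR's quasi-likelihood test with Benjamini-Hochberg adjustment over all 18893 genes), against 12% of all genes called in either direction, 7.25% higher and 4.74% lower. At least 2-fold, 2 rose and 6 fell, beside 2.68% and 1.09% of all genes. The members' median log2 ratio was 0.00, beside 0.01 over all genes. The 5 that rose were NRP2, SEMA7A, PLXNA2, EPHB2 and SLIT2. The 10 that fell were 5 semaphorins (SEMA3B, SEMA3F, SEMA4G, SEMA6A and SEMA6C), the Eph receptors EPHA3, EPHA7 and EPHB3, the ligand EFNA5 and the receptor ROBO1. EPHB3 and SEMA6C were rare, at 0.424, 0.124 and 0.141 CPM and 0.938, 0.348 and 0.294 CPM in the control, MKL1 and caMKL1 groups. In LM2 5 of the 53 passed the filter on low counts only through the group where they are highest, EPHB3 and SEMA6C through control and EPHA6, SEMA4A and UNC5B through caMKL1 libraries; such a gene had to differ between groups, so nothing is read from its call in LM2, though it stays in the counts. Without control replicate 3 the calls were 8, of which 4 rose and 4 fell, and with replicate 1 of both overexpressing groups left out they were 21. The call of SLIT2 was lost without control replicate 3 (adjusted p = 0.0513). The call of SEMA3B was lost without control replicate 3 (adjusted p = 0.0754). The call of SEMA4G was lost without control replicate 2 or 3 or MKL1 replicate 1 or 3 (adjusted p = 0.0539 to 0.111). The call of EPHB3 was lost without control replicate 1, 2 or 3 or MKL1 replicate 1, 2 or 3 (adjusted p = 0.0509 to 0.111). The call of ROBO1 was lost without control replicate 1, 2 or 3 or MKL1 replicate 1 or caMKL1 replicate 2 or 3 (adjusted p = 0.0575 to 0.164). The call of SEMA6A was lost without control replicate 3 (adjusted p = 0.0655). The call of SEMA6C was lost without control replicate 1 or 3 or MKL1 replicate 1, 2 or 3 (adjusted p = 0.0535 to 0.214).

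Among the ligands, SEMA7A, a membrane-anchored semaphorin that binds integrins and plexin C1, stood at 27.4, 28.6 and 26.1 CPM in the control libraries, 73.4, 50.2 and 51.3 CPM in the MKL1 libraries and 28.4, 22.9 and 21.3 CPM in the caMKL1 libraries. The MKL1 libraries lay above all others, replicate 1 highest. SEMA7A rose by 1.09 ± 0.14 on the log2 scale (adjusted p = 0.000103) with MKL1 and was lower by 1.27 ± 0.15 on the log2 scale (adjusted p = 1.43e-06) with caMKL1 than with MKL1, while caMKL1 and control overlapped. SEMA3F, a secreted ligand that prefers NRP2, stood at 4.06, 3.87 and 4.87 CPM in the control libraries, 1.34, 1.30 and 2.22 CPM in the MKL1 libraries and 0.423, 0.329 and 0.298 CPM in the caMKL1 libraries. The 3 groups did not overlap, and SEMA3F fell by 1.37 ± 0.23 on the log2 scale (adjusted p = 0.000992) with MKL1 and by 3.57 ± 0.30 on the log2 scale (adjusted p = 3.7e-08) with caMKL1. SEMA3B, another secreted class 3 ligand, stood at 7.02, 6.19 and 8.22 CPM in the control libraries, 4.31, 2.64 and 3.73 CPM in the MKL1 libraries and 1.69, 1.08 and 0.695 CPM in the caMKL1 libraries. Its groups kept the same order without overlap, with a fall of 2.59 ± 0.27 on the log2 scale (adjusted p = 4.34e-07) under caMKL1. EPHA3, a receptor of ephrin-A ligands, stood at 2.76, 2.96 and 3.39 CPM in the control libraries, 0.935, 1.17 and 1.54 CPM in the MKL1 libraries and 0.577, 0.752 and 0.943 CPM in the caMKL1 libraries, with both overexpressing groups below the control libraries and a narrow overlap between them. It fell by 1.31 ± 0.24 on the log2 scale (adjusted p = 0.00209) with MKL1 and by 2.02 ± 0.27 on the log2 scale (adjusted p = 6.62e-06) with caMKL1.

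Most of the guidance genes tested in LM2 changed with caMKL1, with NRP1 falling and NRP2 and UNC5C rising. Of the 53 tested, 21 rose and 24 fell, against 64.9% of all genes called in either direction, 31.9% higher and 33.0% lower. At least 2-fold, 15 rose and 18 fell, beside 19.6% and 15.2% of all genes. The members' median log2 ratio was -0.17 beside -0.05 over all genes, and their median absolute log2 ratio 1.29 beside 0.70. Scaling by library totals in place of TMM moved the median of all genes to -0.46, and the member calls became 15 rises and 30 falls. Between caMKL1 and MKL1 directly, 21 rose and 21 fell, against 64.5% of all genes called, 32.6% higher and 31.9% lower. At least 2-fold, 15 rose and 12 fell, beside 19.5% and 14.4% of all genes. Library totals gave 16 rises and 24 falls between them. With replicate 1 of both overexpressing groups left out the calls were 47 against control and 39 against MKL1. The call of SEMA3C was lost without control replicate 2 or 3 or caMKL1 replicate 2 (adjusted p = 0.0516 to 0.114). The call of EPHB2 was lost without control replicate 1 or 2 or caMKL1 replicate 1 or 2 (adjusted p = 0.0572 to 0.122). The call of EPHB3 was lost without caMKL1 replicate 2 or 3 (adjusted p = 0.0517 to 0.0567). With library totals the ratios of SEMA3C (-0.14, adjusted p = 0.192) and EPHB2 (-0.19, adjusted p = 0.0856) turned below 0. The calls of SEMA6D (0.28, adjusted p = 0.173), PLXNA3 (0.23, adjusted p = 0.147), SEMA4F (0.42, adjusted p = 0.0656) and EPHA6 (0.89, adjusted p = 0.0710) were also lost.

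NRP1 fell and NRP2 rose with caMKL1 in LM2. NRP1 stood at 388, 402 and 448 CPM in the control libraries, 423, 459.5 and 512 CPM in the MKL1 libraries and 78.4, 78.3 and 74.8 CPM in the caMKL1 libraries. The caMKL1 libraries lay far below the others, a fall of 2.42 ± 0.10 on the log2 scale (adjusted p = 7.98e-12), while control and MKL1 overlapped. NRP2 stood at 12.1, 8.70 and 12.4 CPM in the control libraries, 24.5, 29.3 and 27.8 CPM in the MKL1 libraries and 103, 106 and 101 CPM in the caMKL1 libraries. Its groups rose in steps without overlap, by 1.30 ± 0.13 on the log2 scale (adjusted p = 4.89e-06) with MKL1 and by 3.22 ± 0.13 on the log2 scale (adjusted p = 5.59e-12) with caMKL1. On the FPKM scale NRP2 made up 2.17% ± 0.384 of neuropilin RNA in control libraries, 4.63% ± 0.359 in MKL1 and 52.6% ± 0.388 in caMKL1 libraries (SD, n = 3), and summed neuropilin RNA was 36.6 ± 2.79, 42.3 ± 3.98 and 14.1 ± 0.352 FPKM. The NRP2 gene lies at chr2:205681990-205798133 on the plus strand (GRCh38).

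Of the semaphorins, the ligands of these receptors, 7 rose and 9 fell of 18 tested, beside 31.9% higher and 33.0% lower of all genes. SEMA3E, which binds plexin D1 without a neuropilin, stood at 10.9, 11.9 and 10.7 CPM in the control libraries, 13.7, 15.7 and 12.4 CPM in the MKL1 libraries and 41.0, 52.1 and 53.3 CPM in the caMKL1 libraries. The caMKL1 libraries lay above the rest, a rise of 2.13 ± 0.13 on the log2 scale (adjusted p = 8.07e-10). SEMA3A, the ligand of NRP1 and class A plexins, averaged 60.6, 76.6 and 209.5 CPM in the control, MKL1 and caMKL1 groups and rose by 1.79 ± 0.12 on the log2 scale (adjusted p = 1.52e-09). The membrane-spanning SEMA6B, a ligand of class A plexins, stood at 17.0, 15.2 and 19.7 CPM in the control libraries, 12.1, 12.2 and 14.6 CPM in the MKL1 libraries and 3.54, 1.88 and 1.79 CPM in the caMKL1 libraries. All caMKL1 libraries lay below the others, replicate 1 highest among them, and SEMA6B fell by 2.82 ± 0.22 on the log2 scale (adjusted p = 1.14e-08). SEMA4G, a membrane-spanning class 4 ligand, stood at 2.07, 2.51 and 2.98 CPM in the control libraries, 1.10, 1.43 and 1.11 CPM in the MKL1 libraries and 1.46, 1.08 and 0.596 CPM in the caMKL1 libraries. Both overexpressing groups lay below the control libraries and overlapped each other. SEMA4B averaged 19.7, 20.3 and 6.93 CPM and SEMA4C 6.50, 6.10 and 2.41 CPM. With caMKL1, SEMA4B, SEMA4C and SEMA4G fell by 1.50, 1.42 and 1.24 on the log2 scale; SEMA4G shares 22.3% of its exon bases with MRPL43 on the other strand (374 against 5058 counts over the 9 libraries), and the counting used no strand option. SEMA4A was counted 3 times over the control libraries and averaged 1.02 CPM in caMKL1 libraries. SEMA6D averaged 4.59, 3.12 and 7.48 CPM and rose by 0.70 ± 0.19 on the log2 scale (adjusted p = 0.0043).

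Of the plexins, the signalling receptors, 2 rose and 4 fell of the 9 tested, beside 31.9% higher and 33.0% lower of all genes. PLXNA2 stood at 13.8, 15 and 13.7 CPM in the control libraries, 29.0, 27.4 and 21.9 CPM in the MKL1 libraries and 67.6, 58.3 and 60.7 CPM in the caMKL1 libraries. The 3 groups rose in order without overlap, by 0.88 ± 0.12 on the log2 scale (adjusted p = 0.000129) and 2.13 ± 0.12 on the log2 scale (adjusted p = 2.82e-10). PLXNB2, a receptor of SEMA4C, stood at 56.6, 53.0 and 49.3 CPM in the control libraries, 49.2, 42.6 and 41.5 CPM in the MKL1 libraries and 20.0, 13.7 and 13.6 CPM in the caMKL1 libraries. The caMKL1 libraries lay lowest and PLXNB2 fell by 1.74 ± 0.14 on the log2 scale (adjusted p = 2.03e-08). PLXNA1 averaged 49.3, 50.4 and 21.2 CPM and PLXND1 29.1, 24.3 and 12.2 CPM, falling by 1.21 ± 0.15 on the log2 scale and 1.25 ± 0.17 on the log2 scale under caMKL1. Endothelial markers, of which 3 of 5 were tested and all 3 fell with caMKL1, summed to 8.89 to 11.1 CPM in control, 6.28 to 9.01 in MKL1 and 2.77 to 3.61 in caMKL1 libraries, with CDH5 at 0.0514, 0.0511 and 0.464 CPM. The 5 breast epithelial markers summed to 351 to 369, 466 to 569.7 and 1607 to 1976 CPM. Of these, KRT18 averaged 138, 179 and 157 CPM and CDH1 0.103, 0.0590 and 0.471 CPM. The 3 mesenchymal markers summed to 2589 to 2752, 3456.5 to 3903 and 6203 to 7326 CPM. With caMKL1, 2 of the 3 rose and 1 fell, AXL averaging 699 CPM in control and 158 CPM in caMKL1 libraries. The 6 neuronal markers summed to 24.3 to 28.1, 25.9 to 26.5 and 9.58 to 11 CPM, with STMN2 at 0 in control libraries. The part of these differences in the guidance genes' changes was not tested.

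Of the Eph receptors, 4 rose and 6 fell of the 10 tested, and of the ephrins 2 rose and 2 fell of the 6 tested. The shares over all genes were 31.9% higher and 33.0% lower. EPHA2, a receptor of ephrin-A1 common in carcinomas, stood at 92.8, 88.0 and 94.7 CPM in the control libraries, 126, 88.2 and 97.6 CPM in the MKL1 libraries and 43.3, 28.6 and 28.2 CPM in the caMKL1 libraries. The caMKL1 libraries lay below all others and EPHA2 fell by 1.46 ± 0.16 on the log2 scale (adjusted p = 6.47e-07). EPHA5, which binds ephrin-A5, averaged 7.82, 7.08 and 20.1 CPM and rose by 1.36 ± 0.15 on the log2 scale (adjusted p = 6.55e-07). EFNA5, a membrane-anchored ligand, stood at 31.9, 32.3 and 30.8 CPM in the control libraries, 21.4, 24.0 and 19.3 CPM in the MKL1 libraries and 10.8, 12.4 and 11.2 CPM in the caMKL1 libraries. Its groups fell in order without overlap. EFNA5 fell by 0.55 ± 0.11 on the log2 scale (adjusted p = 0.0039) with MKL1 and by 1.46 ± 0.12 on the log2 scale (adjusted p = 1.7e-08) with caMKL1. EFNA1, the main ligand of EPHA2, averaged 2.36, 2.20 and 5.42 CPM and rose by 1.20 ± 0.26 on the log2 scale (adjusted p = 0.000773).

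SLIT2, ROBO2, ROBO3 and UNC5C rose with caMKL1 in LM2, ROBO4 and NTN4 fell, and ROBO1 did not pass the test. UNC5B, a netrin receptor that can trigger cell death without its ligand, was counted 1, 3 and 4 times in the control libraries and stood at 0.0406, 0.114 and 0.151 CPM in the control libraries, 0.401, 0.346 and 0.142 CPM in the MKL1 libraries and 5.04, 4.47 and 4.32 CPM in the caMKL1 libraries. UNC5C, a related receptor, stood at 0.690, 0.721 and 0.377 CPM in the control libraries, 0.568, 0.823 and 0.995 CPM in the MKL1 libraries and 6.19, 5.08 and 6.45 CPM in the caMKL1 libraries. In UNC5C the caMKL1 libraries lay above all others, while control and MKL1 libraries overlapped. UNC5C rose by 3.30 ± 0.27 on the log2 scale (adjusted p = 2.3e-08). UNC5B passed the filter only through caMKL1 libraries, so nothing is read from the order of its groups. SLIT2, a secreted ligand of ROBO1 and ROBO2, stood at 19.1, 17.3 and 16.3 CPM in the control libraries, 24.8, 24.9 and 22.6 CPM in the MKL1 libraries and 56.5, 57.8 and 54.9 CPM in the caMKL1 libraries. Its groups rose in order without overlap, by 0.46 ± 0.10 on the log2 scale (adjusted p = 0.00748) with MKL1 and by 1.68 ± 0.10 on the log2 scale (adjusted p = 5.71e-10) with caMKL1. ROBO2 stood at 3.69, 2.62 and 3.02 CPM in the control libraries, 2.74, 3.55 and 2.99 CPM in the MKL1 libraries and 13.3, 15.5 and 16.3 CPM in the caMKL1 libraries. It rose by 2.27 ± 0.17 on the log2 scale (adjusted p = 9.84e-09) with caMKL1, and control and MKL1 libraries overlapped. ROBO3 averaged 9.26, 9.44 and 19.6 CPM, a rise of 1.08 ± 0.18 on the log2 scale (adjusted p = 5.5e-05). ROBO4, a receptor best known from endothelium, averaged 12, 9.91 and 5.57 CPM and fell by 1.11 ± 0.15 on the log2 scale (adjusted p = 1.05e-05). ROBO1, the most abundant roundabout receptor by FPKM, averaged 119, 91.3 and 112 CPM, and its caMKL1 ratio was -0.09 ± 0.11 (adjusted p = 0.526). NTN4, a laminin-like netrin, averaged 28.1, 29.1 and 14.6 CPM and fell by 0.95 ± 0.12 on the log2 scale (adjusted p = 2.66e-06).

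**Figure D2:**
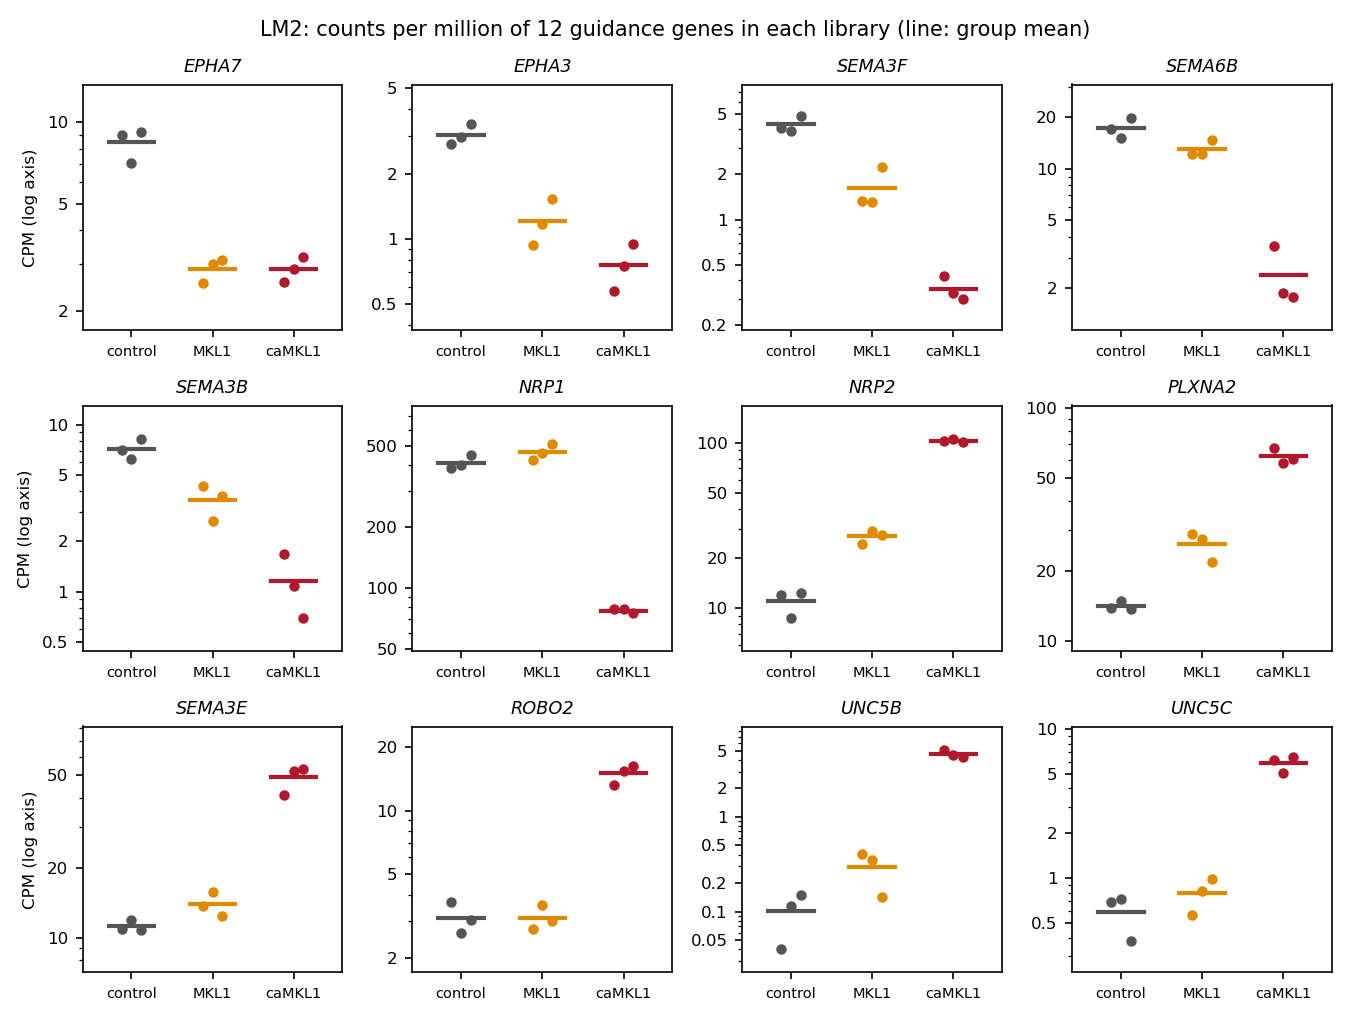
CPM (log axis) of 12 guidance genes in each LM2 library, by group (control, MKL1, caMKL1); points are libraries and lines are group means. NRP1 fell from 413 to 77.2 CPM as NRP2 rose from 11.1 to 103 CPM, and EPHA7 lay near 2.88 CPM in both overexpressing groups.

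Most guidance genes tested fell in LM2 cells with high LifeAct, with the largest falls in the plexins PLXND1 and PLXNB1. Of the 57 members tested, 5 rose and 34 fell in low cells, against 49.6% of all 21869 genes called in either direction, 26.0% higher and 23.6% lower. At least 2-fold, 1 rose and 4 fell, beside 5.46% and 4.64% of all genes. In high cells 16 rose and 34 fell, against 71.1% of all genes, 36.0% higher and 35.2% lower. At least 2-fold, 3 rose and 20 fell, beside 11.4% and 16.4% of all genes. The members' median log2 ratio was -0.31 in low and -0.49 in high cells, beside -0.01 and -0.03 over all genes. Between high and low directly, 16 rose and 23 fell, against 50.3% of all genes called, 26.6% higher and 23.7% lower. At least 2-fold, 4 rose and 8 fell, beside 3.12% and 6.19% of all genes. The low and high comparisons share their negative libraries. Leaving out 1 library at a time lost the low-cell calls of EPHA3, EPHA4, SEMA4A, SEMA4D, SEMA6D and UNC5B and the high-cell calls of EFNA4, PLXNA2, SEMA3G and SEMA4F. On leaving out 1 library, calls were lost in low cells for EPHA3, EPHA4, SEMA4A, SEMA4D, SEMA6D and UNC5B (adjusted p = 0.0506 to 0.195) and in high cells for EFNA4, PLXNA2, SEMA3G and SEMA4F (adjusted p = 0.0515 to 0.359).

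PLXND1, the receptor of SEMA3E, stood at 341, 329 and 314 CPM in the negative libraries, 172, 173 and 159.5 CPM in the low libraries and 59.2, 54.1 and 59.0 CPM in the high libraries. PLXNB1, the receptor of SEMA4D, stood at 56.4, 51.0 and 48.0 CPM in the negative libraries, 20.3, 23.2 and 21.6 CPM in the low libraries and 9.38, 8.95 and 9.33 CPM in the high libraries. In both the 3 groups fell in order without overlap, PLXND1 by 0.97 ± 0.04 on the log2 scale (adjusted p = 1.43e-16) in low and 2.51 ± 0.05 on the log2 scale (adjusted p = 4.85e-26) in high cells, and PLXNB1 by 1.26 ± 0.07 on the log2 scale (adjusted p = 1.55e-14) and 2.49 ± 0.08 on the log2 scale (adjusted p = 8.33e-21). PLXNA1 averaged 544, 378 and 150.4 CPM in negative, low and high cells and fell by 1.85 ± 0.05 on the log2 scale (adjusted p = 2.99e-23) in high cells. PLXNB3 fell by 1.19 ± 0.10 on the log2 scale (adjusted p = 5.17e-12); it shares 20.4% of its exon bases with SRPK3. Against these, PLXNB2 rose by 0.32 ± 0.05 on the log2 scale (adjusted p = 3.19e-07) in high cells. Summed plexin RNA was 143 ± 7.58, 105 ± 2.16 and 73.0 ± 4.68 FPKM. NRP1 averaged 1025, 656 and 497 CPM, falling by 0.64 ± 0.03 on the log2 scale (adjusted p = 2.48e-15) in low and 1.04 ± 0.03 on the log2 scale (adjusted p = 8.38e-21) in high cells, and NRP2 made up 1.67% ± 0.124, 2.68% ± 0.165 and 4.06% ± 0.289 of neuropilin RNA (SD, n = 3).

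Among the ligands, 4 rose and 12 fell of the 19 tested semaphorins in high cells, beside 36.0% higher and 35.2% lower of all genes. SEMA3F stood at 33.3, 29.1 and 27.9 CPM in the negative libraries, 24.6, 20.8 and 22.9 CPM in the low libraries and 8.86, 8.17 and 7.84 CPM in the high libraries. SEMA4G stood at 9.54, 10.2 and 7.39 CPM in the negative libraries, 6.57, 5.71 and 6.08 CPM in the low libraries and 2.09, 1.96 and 2.43 CPM in the high libraries. Both fell in order without overlap, SEMA3F by 1.86 ± 0.09 on the log2 scale (adjusted p = 1.93e-16) and SEMA4G by 2.06 ± 0.16 on the log2 scale (adjusted p = 1.67e-12) in high cells. SEMA4B, the most abundant class 4 member by FPKM in negative cells, averaged 250.1, 165 and 80.0 CPM and fell by 1.64 ± 0.05 on the log2 scale (adjusted p = 5.87e-22). EFNA3, an ephrin-A ligand, stood at 7.23, 6.02 and 5.26 CPM in the negative libraries, 2.35, 2.62 and 2.17 CPM in the low libraries and 1.48, 1.57 and 1.05 CPM in the high libraries. The groups did not overlap and EFNA3 fell by 2.17 ± 0.19 on the log2 scale (adjusted p = 4.61e-11) in high cells; 43.9% of its exon bases are shared with AL691442.1, listed on the same strand. NTN5, a secreted netrin, stood at 3.50, 3.24 and 2.51 CPM in the negative libraries, 1.53, 1.73 and 1.56 CPM in the low libraries and 0.655, 0.392 and 1.10 CPM in the high libraries. It too fell without overlap, by 2.07 ± 0.28 on the log2 scale (adjusted p = 1.29e-07) in high cells. EPHA1, a receptor of ephrin-A1, stood at 4.27, 7.31 and 5.26 CPM in the negative libraries, 2.41, 2.32 and 2.65 CPM in the low libraries and 2.18, 1.89 and 1.49 CPM in the high libraries. SEMA6C, a membrane-spanning class 6 ligand, stood at 10.3, 10.7 and 9.35 CPM in the negative libraries, 4.93, 5.24 and 5.21 CPM in the low libraries and 3.36, 3.92 and 3.09 CPM in the high libraries. The high libraries of both lay below the negative ones. SEMA5A, EPHA1, SEMA6C, SEMA3B, ROBO3, ROBO2, NTN1, EPHA3 and SEMA4C also fell at least 2-fold in high cells, by 1.00 to 1.65 on the log2 scale.

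The rises in high cells were fewer and mostly smaller. EFNB1, a membrane-spanning ligand of EphB receptors, stood at 1.07, 1.16 and 0.794 CPM in the negative libraries, 2.57, 2.20 and 2.17 CPM in the low libraries and 4.84, 4.96 and 5.46 CPM in the high libraries. The groups rose in order without overlap, by 1.19 ± 0.23 on the log2 scale (adjusted p = 9.4e-05) in low and 2.33 ± 0.20 on the log2 scale (adjusted p = 4.02e-11) in high cells. EPHB3, one of the receptors of ephrin-B1, stood at 1.36, 0.841 and 1.22 CPM in the negative libraries, 0.930, 1.43 and 0.912 CPM in the low libraries and 2.84, 3.14 and 2.65 CPM in the high libraries. Its high libraries lay above all others, a rise of 1.31 ± 0.25 on the log2 scale (adjusted p = 2.83e-05), while negative and low libraries overlapped. EPHA4, which binds ephrins of both classes, stood at 12.4, 11.2 and 10.8 CPM in the negative libraries, 10.6, 8.98 and 9.56 CPM in the low libraries and 21.5, 22.1 and 22.7 CPM in the high libraries. The high libraries lay above all others, and EPHA4 rose by 0.94 ± 0.09 on the log2 scale (adjusted p = 1.63e-10) in high cells. SLIT2 stood at 63.5, 65.9 and 64.1 CPM in the negative libraries, 46.5, 46.1 and 45.5 CPM in the low libraries and 94.9, 99.4 and 97.1 CPM in the high libraries. It was lowest in low and highest in high cells, falling by 0.49 ± 0.05 on the log2 scale (adjusted p = 4.98e-09) and rising by 0.59 ± 0.05 on the log2 scale (adjusted p = 9.79e-12) against negative cells. SEMA7A averaged 66.9, 106 and 121 CPM and rose by 0.67 ± 0.05 on the log2 scale (adjusted p = 2.14e-12) in low and 0.86 ± 0.05 on the log2 scale (adjusted p = 1.83e-15) in high cells. UNC5B averaged 0.561, 1.00 and 1.93 CPM and rose by 1.78 ± 0.31 on the log2 scale (adjusted p = 1.16e-05) in high cells, and SEMA3C averaged 131, 117 and 219.8 CPM with a rise of 0.75 ± 0.04 on the log2 scale (adjusted p = 1.85e-15). Endothelial markers summed to 106 to 109.9 CPM in negative, 45.7 to 49.1 in low and 21.7 to 24.8 in high libraries. PECAM1 made most of that sum, at 92.5, 29.9 and 7.47 CPM, and the defining marker CDH5 averaged 0.324, 0.174 and 0.142 CPM. KDR went the other way, at 2.38, 3.43 and 4.94 CPM. Among the 3 endothelial markers tested, 1 rose and 1 fell in high cells. Neuronal markers summed to 31.1 to 36.1, 25.5 to 29.0 and 59.7 to 63.6 CPM and glial markers to 106 to 108, 91.3 to 95.1 and 43.4 to 49.5 CPM. Among the neuronal ones SYT1 averaged 10.5, 13.4 and 49.9 CPM, SNAP25 6.81, 5.73 and 3.25 CPM and TUBB3 13.6, 6.31 and 7.48 CPM. In high cells 1 of the 4 neuronal markers tested rose and 2 fell. Their part in these results was not tested.

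**Figure D3:**
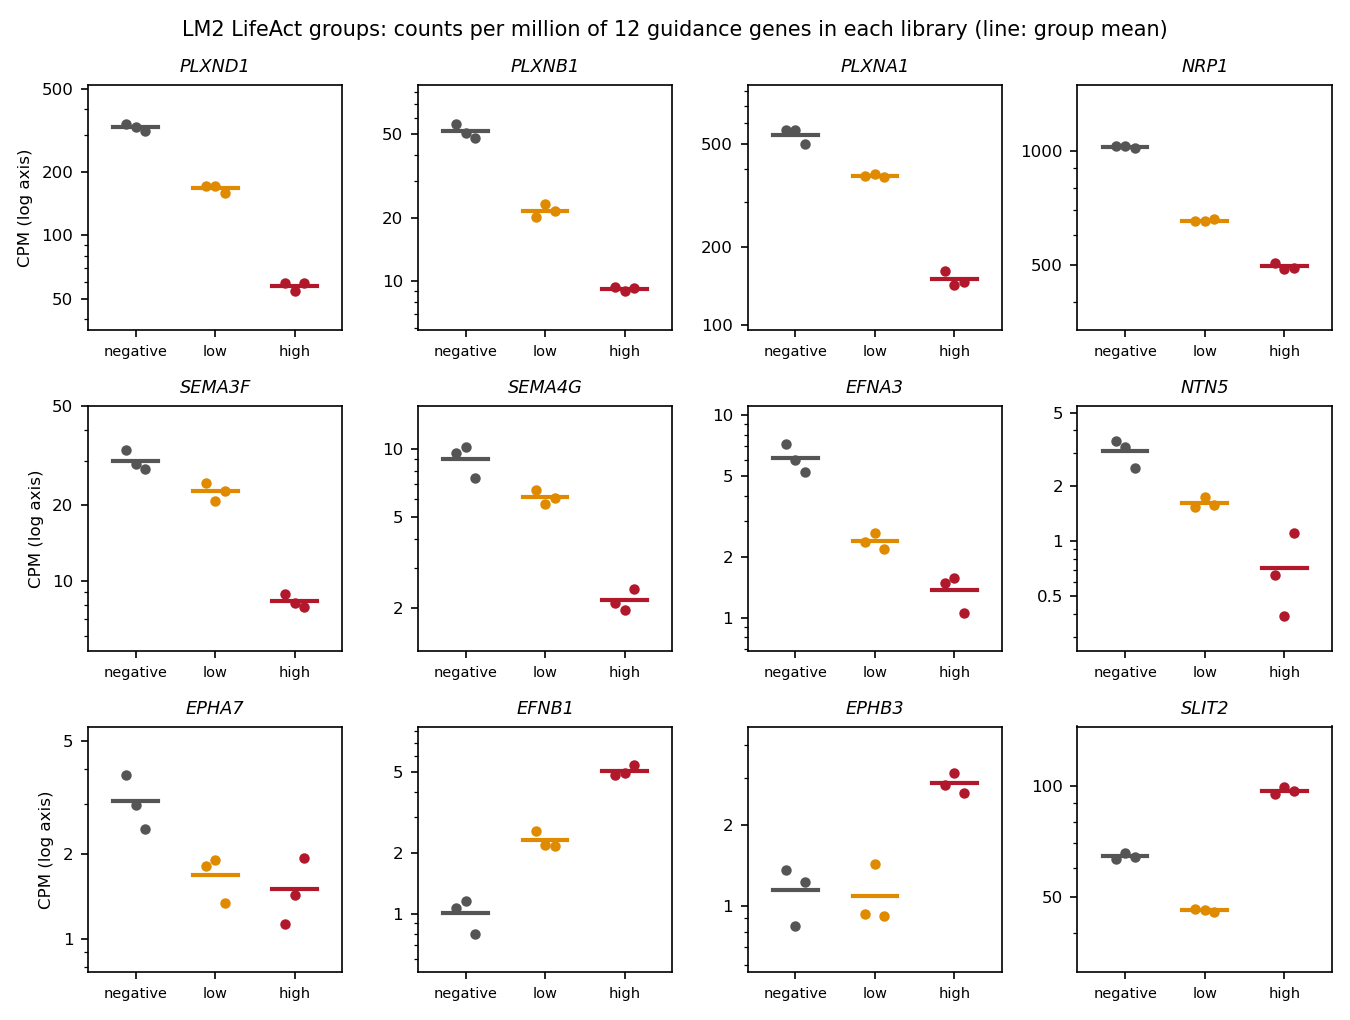
CPM (log axis) of 12 guidance genes in each library of the LifeAct experiment, by group (negative, low, high); points are libraries and lines are group means. PLXND1 fell from 328 through 168 to 57.4 CPM, EFNB1 rose from 1.01 to 5.09 CPM, and SLIT2 was lowest in low cells.

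In 4T1 the secreted semaphorin Sema3c had the largest rise of the 50 members tested, and most members called with caMKL1 fell. With wild-type MKL1, 18 rose and 10 fell of the 50 members tested, against 34.3% of all 16297 genes called in either direction, 19.3% higher and 15% lower. At least 2-fold, 3 rose and 2 fell, beside 2.90% and 0.779% of all genes. Library totals in place of TMM gave 15 rises and 15 falls. With caMKL1, 11 rose and 30 fell, against 72.0% of all genes, 36.2% higher and 35.8% lower. At least 2-fold, 6 rose and 10 fell, beside 13.4% and 8.72% of all genes. Directly between caMKL1 and MKL1, 9 rose and 30 fell, against 66.6% of all genes called, 33.8% higher and 32.8% lower. At least 2-fold, 4 rose and 12 fell, beside 11.1% and 7% of all genes. The members' median log2 ratio was 0.06 with MKL1 and -0.58 with caMKL1, beside -0.00 and -0.02 over all genes; library totals moved the median of all genes to -0.21 with caMKL1. With MKL1, 7 calls were lost on leaving out 1 library. The call of SLIT2 was lost without MKL1 replicate 1 or 2 (adjusted p = 0.0575 to 0.0656). The call of NRP2 was lost without MKL1 replicate 3 (adjusted p = 0.0827). The call of EFNA5 was lost without control replicate 1 or 2 or MKL1 replicate 3 (adjusted p = 0.0687 to 0.169). The call of EFNA2 was lost without control replicate 1 or 2 or MKL1 replicate 1 or 2 (adjusted p = 0.0512 to 0.106). The call of EFNB2 was lost without control replicate 2 or MKL1 replicate 1 or 2 (adjusted p = 0.0565 to 0.131). The call of EPHB4 was lost without control replicate 3 or MKL1 replicate 1 (adjusted p = 0.0543 to 0.0613). The call of SEMA6B was lost without control replicate 2 (adjusted p = 0.0534). With caMKL1, 2 calls were lost on leaving out 1 library. The call of EPHB3 was lost without control replicate 2 or 3 or caMKL1 replicate 2 (adjusted p = 0.0668 to 0.101). The call of SEMA6C was lost without control replicate 1 (adjusted p = 0.0569).

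Sema3c, a secreted ligand of both neuropilins, stood at 0.497, 0.514 and 0.301 CPM in the control libraries, 2.57, 2.05 and 2.97 CPM in the MKL1 libraries and 39.6, 38.0 and 40.4 CPM in the caMKL1 libraries, from 13, 16 and 8 counts in the control libraries. The 3 groups did not overlap, and it rose by 2.50 ± 0.22 on the log2 scale (adjusted p = 3.72e-09) with MKL1 and by 6.46 ± 0.13 on the log2 scale (adjusted p = 1.34e-22) with caMKL1. Sema3a stood at 1.64, 1.89 and 1.92 CPM in the control libraries, 5.31, 6.60 and 6.07 CPM in the MKL1 libraries and 6.45, 6.46 and 6.00 CPM in the caMKL1 libraries. Both overexpressing groups lay above the control libraries, by 1.72 ± 0.14 on the log2 scale (adjusted p = 9.52e-10) and 1.79 ± 0.14 on the log2 scale (adjusted p = 4.71e-11), and overlapped each other. Sema3b stood at 20.9, 19.3 and 18.2 CPM in the control libraries, 20.8, 22.8 and 19.8 CPM in the MKL1 libraries and 48.3, 55.2 and 50.2 CPM in the caMKL1 libraries. With caMKL1 it rose by 1.40 ± 0.07 on the log2 scale (adjusted p = 1.87e-15), and its MKL1 ratio was 0.12 ± 0.07 (adjusted p = 0.209). Sema6d, a membrane-spanning class 6 ligand, stood at 3.13, 4.21 and 3.01 CPM in the control libraries, 5.39, 5.92 and 5.21 CPM in the MKL1 libraries and 7.12, 7.34 and 6.94 CPM in the caMKL1 libraries. The groups rose in order without overlap, by 0.66 ± 0.13 on the log2 scale (adjusted p = 0.000387) and 1.03 ± 0.13 on the log2 scale (adjusted p = 1.31e-07). Sema3d averaged 0.661, 1.54 and 0.160 CPM, rising by 1.21 ± 0.29 on the log2 scale (adjusted p = 0.00171) with MKL1 and falling by 2.01 ± 0.43 on the log2 scale (adjusted p = 0.000231) with caMKL1.

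The falling ligands included Sema3e, Sema5a, Sema6b and Sema3f. Sema3e stood at 109.7, 115 and 116 CPM in the control libraries, 112, 116 and 115 CPM in the MKL1 libraries and 49.8, 44.4 and 44.1 CPM in the caMKL1 libraries. Sema5a, a membrane-spanning semaphorin with thrombospondin repeats, stood at 20.5, 20.8 and 20.1 CPM in the control libraries, 27.7, 26.9 and 27.9 CPM in the MKL1 libraries and 6.27, 6.42 and 6.28 CPM in the caMKL1 libraries. The caMKL1 libraries of both lay below all others, with falls of 1.30 ± 0.04 on the log2 scale (adjusted p = 3.22e-18) and 1.69 ± 0.07 on the log2 scale (adjusted p = 4.72e-16), while Sema5a rose by 0.42 ± 0.06 on the log2 scale (adjusted p = 4.19e-06) with MKL1. Sema6b stood at 21.5, 21.6 and 18.7 CPM in the control libraries, 17.1, 18.1 and 16.7 CPM in the MKL1 libraries and 8.23, 7.89 and 7.83 CPM in the caMKL1 libraries. Its groups fell in order without overlap, and it fell by 1.37 ± 0.08 on the log2 scale (adjusted p = 1.77e-13) with caMKL1. Sema3f averaged 173, 229 and 103 CPM, a rise of 0.41 ± 0.04 on the log2 scale (adjusted p = 3.82e-09) with MKL1 and a fall of 0.74 ± 0.04 on the log2 scale (adjusted p = 1.65e-14) with caMKL1. Across the family, 7 rose and 3 fell of the 18 tested semaphorins with MKL1, beside 19.3% higher and 15% lower of all genes. Of the same 18, 5 rose and 10 fell with caMKL1, beside 36.2% higher and 35.8% lower of all genes.

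Of the plexins, 2 rose and 4 fell of the 7 tested with caMKL1, beside 36.2% higher and 35.8% lower of all genes. Both neuropilins fell. Plxna3, a class A plexin used by Sema3f, stood at 28.1, 29.7 and 27.5 CPM in the control libraries, 27.7, 28.9 and 28.9 CPM in the MKL1 libraries and 88.5, 83.4 and 90.2 CPM in the caMKL1 libraries. The caMKL1 libraries lay above the rest, by 1.62 ± 0.05 on the log2 scale (adjusted p = 2.11e-19), and control and MKL1 overlapped. Plxnd1 stood at 69.2, 61.5 and 63.2 CPM in the control libraries, 54.7, 56.2 and 54.2 CPM in the MKL1 libraries and 25.6, 28.7 and 28.4 CPM in the caMKL1 libraries. It fell by 0.23 ± 0.05 on the log2 scale (adjusted p = 0.000758) with MKL1 and by 1.23 ± 0.05 on the log2 scale (adjusted p = 6.52e-16) with caMKL1, without overlap. Plxnb1 averaged 92.0, 85.7 and 41.4 CPM and fell by 1.15 ± 0.05 on the log2 scale (adjusted p = 2.76e-16), and Plxna1 averaged 173, 207 and 292 CPM and rose by 0.76 ± 0.03 on the log2 scale (adjusted p = 1.01e-15). Nrp1 averaged 53.2, 62.4 and 25.3 CPM, a fall of 1.07 ± 0.06 on the log2 scale (adjusted p = 3.8e-14) with caMKL1, and Nrp2 averaged 447, 477 and 342 CPM, a fall of 0.38 ± 0.03 on the log2 scale (adjusted p = 1.41e-11). Nrp2 made up 87.4% ± 0.326 of neuropilin RNA in control and 91.8% ± 0.807 in caMKL1 libraries (SD, n = 3).

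Of the Eph receptors, 1 rose and 6 fell of the 9 tested with caMKL1, and of the ephrins 1 rose and 6 fell of the 8 tested. The shares over all genes were 36.2% higher and 35.8% lower. Epha2 stood at 265, 236 and 249 CPM in the control libraries, 191, 191 and 198 CPM in the MKL1 libraries and 73.6, 67.8 and 81.8 CPM in the caMKL1 libraries. The groups fell in order without overlap, by 0.37 ± 0.05 on the log2 scale (adjusted p = 6.04e-07) and 1.75 ± 0.05 on the log2 scale (adjusted p = 9.73e-20). Epha1 stood at 112, 104 and 97.4 CPM in the control libraries, 162, 162 and 150.0 CPM in the MKL1 libraries and 61.3, 61.7 and 59.7 CPM in the caMKL1 libraries. Ephb6, a receptor that lacks kinase activity, stood at 8.56, 7.13 and 7.72 CPM in the control libraries, 15.8, 15 and 14.7 CPM in the MKL1 libraries and 4.36, 4.43 and 5.51 CPM in the caMKL1 libraries. In both genes the MKL1 libraries were highest and the caMKL1 libraries lowest, without overlap. Both rose with MKL1, by 0.60 ± 0.04 on the log2 scale (adjusted p = 7.14e-11) and 0.96 ± 0.09 on the log2 scale (adjusted p = 1.53e-08), and fell with caMKL1, by 0.78 ± 0.05 on the log2 scale (adjusted p = 2.04e-13) and 0.71 ± 0.11 on the log2 scale (adjusted p = 4.73e-06). Efnb2, a ligand of EphB4, averaged 141, 131 and 75.4 CPM and fell by 0.90 ± 0.04 on the log2 scale (adjusted p = 4.09e-16). Efnb1 averaged 15.2, 16.9 and 23.5 CPM and rose by 0.63 ± 0.07 on the log2 scale (adjusted p = 1.6e-08).

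Robo1, the one roundabout receptor that passed the filter in 4T1, stood at 5.58, 5.33 and 6.44 CPM in the control libraries, 1.96, 1.57 and 2.88 CPM in the MKL1 libraries and 0.489, 0.553 and 0.571 CPM in the caMKL1 libraries. The groups fell in order without overlap, by 1.45 ± 0.18 on the log2 scale (adjusted p = 4.75e-07) with MKL1 and 3.41 ± 0.22 on the log2 scale (adjusted p = 1.6e-12) with caMKL1. Its ligand Slit2 stood at 2.41, 2.50 and 2.33 CPM in the control libraries, 3.65, 3.66 and 2.92 CPM in the MKL1 libraries and 5.70, 6.49 and 6.98 CPM in the caMKL1 libraries. It rose by 0.50 ± 0.16 on the log2 scale (adjusted p = 0.0143) and 1.40 ± 0.14 on the log2 scale (adjusted p = 3.52e-09), and again the groups did not overlap. Unc5b averaged 234, 280.2 and 244 CPM and rose by 0.26 ± 0.04 on the log2 scale (adjusted p = 2.95e-06) with MKL1, with a caMKL1 ratio of 0.06 ± 0.04 (adjusted p = 0.148). Ntn4 averaged 4.42, 6.96 and 7.10 CPM, a rise of 0.68 ± 0.11 on the log2 scale (adjusted p = 5.62e-06) with caMKL1, and Ntn1 56.4, 59.3 and 40.2 CPM, a fall of 0.49 ± 0.04 on the log2 scale (adjusted p = 8.49e-10). Breast epithelial markers summed to 2133 to 2192 CPM in control, 3306 to 3376 in MKL1 and 4455 to 4652 in caMKL1 libraries, and endothelial markers stayed at or below 1.18 CPM in sum. With each construct 4 of the 5 breast epithelial markers rose against control and 1 fell. EPCAM went against the sum, averaging 217, 178 and 71.7 CPM in the control, MKL1 and caMKL1 groups. The 3 mesenchymal markers summed to 3005 to 3053, 3869 to 3910 and 2718 to 2768 CPM in those groups. Their part in the guidance genes' changes was not tested.

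**Figure D4:**
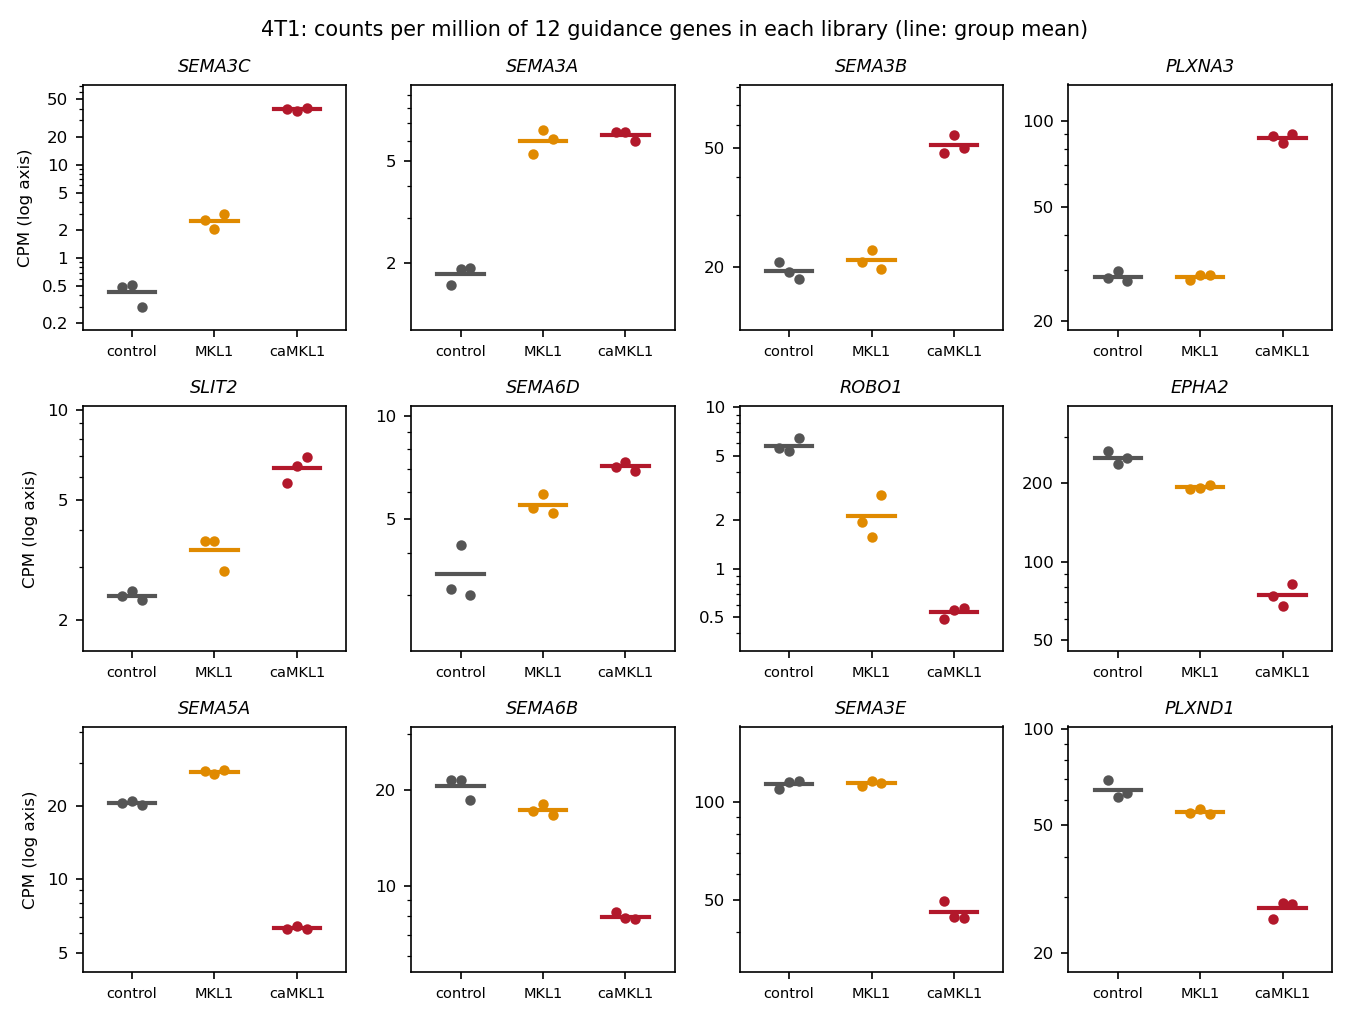
CPM (log axis) of 12 guidance genes in each 4T1 library, by group (control, MKL1, caMKL1); points are libraries and lines are group means. Symbols are in human style; SEMA3C rose from 0.437 through 2.53 to 39.4 CPM and ROBO1 fell from 5.78 to 0.538 CPM.

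The responses of the lines were then compared gene by gene. Of the 42 members tested in both, the caMKL1 response differed between 4T1 and LM2 in 30 (16 with the higher ratio in 4T1, 14 with the lower), against 70.3% of the 10361 genes tested in that way, 35.8% higher and 34.5% lower. The MKL1 response differed in 15 (11 higher, 4 lower), against 25.8% of genes, 13.1% higher and 12.7% lower. The fit behind these differences shares 1 dispersion per gene between the lines, although LM2 libraries varied more. Its standard errors can be too small and its p-values too low, and these counts rest on them. With library totals the caMKL1 split became 19 and 9. With caMKL1, 32 members were called in each line, 6 rising in both, 16 falling in both and 10 moving in opposite directions. Of all genes tested in both lines, 58.3% were called in each, 16.7% rising in both, 20.5% falling in both and 21.1% moving in opposite directions. The 10 make up 23.8% of the members tested, near the share of all genes. Among the 6 rising in both lines, SEMA3C, SEMA6D and PLXNA3 lost their LM2 calls with library totals. NRP2, rising in LM2 by 3.22 ± 0.13 on the log2 scale, fell in 4T1 by 0.38 ± 0.03 on the log2 scale (adjusted p of the difference = 4.53e-15). SEMA3E rose in LM2 by 2.13 ± 0.13 on the log2 scale and fell in 4T1 by 1.30 ± 0.04 on the log2 scale (adjusted p = 2.02e-14), and SEMA3B fell in LM2 by 2.59 ± 0.27 on the log2 scale and rose in 4T1 by 1.40 ± 0.07 on the log2 scale (adjusted p = 3.78e-11). SEMA3D, EPHA1, EFNA1 and EPHB2 rose in LM2 and fell in 4T1, whereas PLXNA1, EPHB3 and NTN4 fell in LM2 and rose in 4T1. EPHA1 had 147 counts over the 9 LM2 libraries and shares 1.75% of its exon bases with ZYX on the other strand, which had 23300; in 4T1 it shares 6.01% with Zyx, with 24291 counts for Epha1 and 78655 for Zyx. EPHB3 passed the filter in LM2 only through control libraries, so nothing is read from its LM2 call or its difference, though it stays among the 10. EPHB2 in LM2 turned below 0 with library totals (-0.19, adjusted p = 0.0856). The call of EPHB2 was lost without control replicate 1 or 2 or caMKL1 replicate 1 or 2 (adjusted p = 0.0572 to 0.122). The call of EPHB3 was lost without caMKL1 replicate 2 or 3 (adjusted p = 0.0517 to 0.0567). In 4T1 the EPHB3 call was lost without control replicate 2 or 3 or caMKL1 replicate 2 (adjusted p = 0.0668 to 0.101). Starting levels differed as well. SEMA3C was at 158 CPM in LM2 and 0.437 CPM in 4T1 controls and rose by 0.27 and 6.46 on the log2 scale with TMM scaling. UNC5B, at 0.102 CPM in LM2 controls and 234 CPM in 4T1 controls, averaged 4.61 and 244 CPM with caMKL1.

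**Figure D5:**
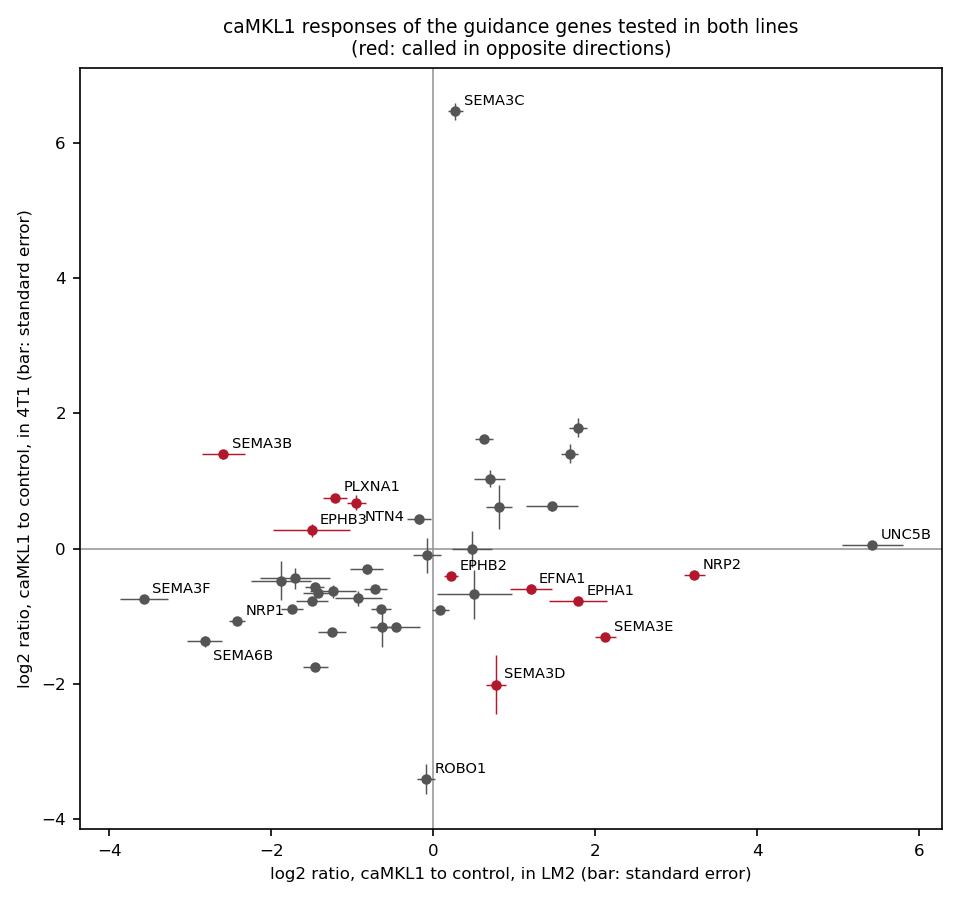
Scatter of the caMKL1 log2 ratio in LM2 (horizontal axis) against that in 4T1 (vertical axis) for the 42 guidance genes tested in both lines; bars are standard errors, and red points were called in opposite directions. The 10 red points include NRP2 and SEMA3E at lower right and SEMA3B at upper left, while SEMA3C lies at 6.46 in 4T1 and 0.27 in LM2.

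Set beside the LifeAct experiment, which has its own controls, 28 of 42 members were called in LM2 caMKL1, LifeAct high and 4T1 caMKL1 alike, 12 of them in mixed directions. Of all genes tested in the 3, 47.9% were called in each, 8.35% rising in all, 6.22% falling in all and 33.3% mixed. EFNB1, SEMA3C and SLIT2 rose in all 3, though SEMA3C in LM2 turned below 0 with library totals. Another 13 fell in all 3: EFNA4, EFNA5, EPHA2, EPHB4, NRP1, PLXND1, SEMA3F, SEMA4B, SEMA4C, SEMA4D, SEMA4G, SEMA6B and SEMA6C, the last of which passed the filter in LM2 only through its highest group, control. In LM2 caMKL1 and LifeAct high, 52 members were tested in both and 38 of them (73.1%) were called in each. Of the 52, 9 (17.3%) rose in both, 18 (34.6%) fell in both and 11 (21.2%) went opposite ways. Of all genes tested in both, 50% were called in each, 13% rising in both, 13% falling in both and 24.0% going opposite ways. The 11 were EFNA1, EPHA1, EPHA4, EPHB3, PLXNA3, PLXNB2, ROBO2, ROBO3, ROBO4, SEMA3A and SEMA4F. Nothing is read from the EPHB3 call in LM2, where the gene passed the filter only through control libraries. The call of EFNA4 was lost without negative replicate 1 or low replicate 1 or 2 or high replicate 1 or 2 (adjusted p = 0.0552 to 0.359). The call of SEMA4F was lost without negative replicate 2 or high replicate 3 (adjusted p = 0.0515 to 0.0623). EFNA4 shares 15% of its exon bases with AL691442.1. In 4T1 the call of SEMA6C was lost without control replicate 1 (adjusted p = 0.0569), and in LM2 those of SEMA3C and EPHB3 each without a caMKL1 library, as given above. Whether these responses differ between the experiments was not tested.

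Genes that act beside these families moved in both directions. Of 30 co-receptors and other cues, 8 rose and 10 fell of the 19 tested in LM2 with caMKL1, 14 rose and 4 fell of the 20 tested in 4T1 with caMKL1, and 11 rose and 10 fell of the 23 tested with high LifeAct. Of all genes tested, the shares were 31.9% higher and 33.0% lower, 36.2% higher and 35.8% lower, and 36.0% higher and 35.2% lower, in that order. NEO1, a receptor of netrins, went from 8.49 to 96.3 CPM, by 3.50 ± 0.12 on the log2 scale (adjusted p = 1.13e-12) in LM2 caMKL1 cells, and CNTN1, an immunoglobulin adhesion protein, from 17.0 to 109 CPM, by 2.68 ± 0.11 on the log2 scale (adjusted p = 1.02e-11). Sdc3, a heparan sulfate proteoglycan, went from 64.8 to 311 CPM, by 2.27 ± 0.04 on the log2 scale (adjusted p = 1.04e-24) in 4T1 caMKL1 cells, and Boc, a Hedgehog co-receptor that also guides axons, from 6.04 to 51.4 CPM, by 3.10 ± 0.07 on the log2 scale (adjusted p = 2.26e-21). FLRT2, a ligand of UNC5 receptors, went from 190.3 to 119 CPM, by 0.68 ± 0.04 on the log2 scale (adjusted p = 1.52e-14) with high LifeAct, a fall. With MKL1, 1 rose and 1 fell of the 19 tested in LM2 and 12 rose and 3 fell of the 20 tested in 4T1, beside 7.25% higher and 4.74% lower and 19.3% higher and 15% lower of all genes. With low LifeAct, 6 rose and 8 fell of the 23 tested, beside 26.0% higher and 23.6% lower of all genes.

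Of 52 effectors that carry these signals to the cytoskeleton, 20 rose and 20 fell of the 46 tested in LM2 with caMKL1, 22 rose and 15 fell of the 44 tested in 4T1 with caMKL1, and 17 rose and 19 fell of the 47 tested with high LifeAct. Of all genes tested, the shares were 31.9% higher and 33.0% lower, 36.2% higher and 35.8% lower, and 36.0% higher and 35.2% lower, in that order. DPYSL3, a collapsin response mediator, went from 1.48 to 31.5 CPM, by 4.40 ± 0.22 on the log2 scale (adjusted p = 7.85e-11) in LM2 caMKL1 cells. ABL2, a kinase downstream of roundabout receptors, rose with high LifeAct from 297 to 950.5 CPM, by 1.68 ± 0.04 on the log2 scale (adjusted p = 3.28e-25). With MKL1, 5 rose and 6 fell of the 46 tested in LM2 and 17 rose and 5 fell of the 44 tested in 4T1, beside 7.25% higher and 4.74% lower and 19.3% higher and 15% lower of all genes. VASP, an actin filament elongation factor, rose with MKL1 in LM2 from 78.4 to 120.2 CPM, by 0.62 ± 0.10 on the log2 scale (adjusted p = 0.000984) and in 4T1 from 124 to 213 CPM, by 0.78 ± 0.04 on the log2 scale (adjusted p = 1.85e-14). With low LifeAct, 11 rose and 16 fell of the 47 tested, beside 26.0% higher and 23.6% lower of all genes.

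The members that did not pass the filter on low counts were rare. In LM2, 15 did not pass the filter, among them EPHA8 and UNC5A with 0 counts in all 9 libraries; in the LifeAct experiment 11 did not pass. In 4T1, 18 did not pass, among them Epha3, Epha6 and Epha7 with 0 counts in all 9 libraries, and the roundabout receptors other than Robo1. EPHB1, SEMA5B, SLIT3, UNC5A and UNC5D passed in none of the 3 experiments. Members that passed only through a group in which they are high had to differ between groups, so the counts above describe the genes tested and not all 68.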

How the data were processed

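Gene expression was analysed in 27 libraries of 9 groups with 3 replicates each, grouped by the sample titles. The authors deposited raw read counts per gene name, counted by featureCounts (v2.0.1) from reads aligned with STAR, using Ensembl annotation (GRCh38 release 103 for LM2, GRCm38 release 102 for 4T1), per the file headers. The headers hold no option for strand or multi-mapping reads, and no source used here gives the version of STAR. The submitters' processing notes also name DESeq2. RNA was sequenced as 150-base pairs on a HiSeq 2500, per the labels' protocols.

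The 3 experiments were fitted separately with edgeR 4.0.16 in R 4.3.3 (quasi-likelihood test, TMM scaling, filterByExpr with a minimum count of 10, prior count 0.125 for ratios). P-values were adjusted by Benjamini-Hochberg over all genes tested, with a threshold of 0.05; all such p-values below are two-sided and come from edgeR. Each ± after a log2 ratio is its standard error. CPM values are scaled by TMM, and FPKM values are CPM per kilobase of merged exons. Responses of the lines were compared by an interaction term over the 18 libraries of LM2 and 4T1, for genes that passed the filter in each line and share a symbol when case is ignored. That fit gives each gene 1 dispersion (spread between replicates) for both lines. Fitted apart, the common coefficient of variation was 0.118 in LM2 and 0.0345 in 4T1. Standard errors of the differences can therefore be too small. For SEMA3B with caMKL1 it was 0.25, beside 0.27 for the LM2 ratio alone. DESeq2 1.42.0, limma 3.58.1 (voom), DESeq2 size factors, library totals, other filters, a replicate block and leaving out libraries were alternatives. The fits were tested on simulated data.

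Values are given per library for EPHA7 and for called members with an absolute log2 ratio of at least 1 and at least 2 CPM in 1 group; those outside the 6 largest rises and falls against control may be given by means or ranges. Values of some effector genes are not reported here. From the 2 lists of related genes, up to 4 genes per comparison with the smallest adjusted p are named. VASP was named after its values were seen. The members and lists were chosen with earlier results of these data known.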

Additional observations from a re-analysis of the deposited data

Results flagged for a closer look

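The response of 15 of 42 guidance genes to MKL1, and of 30 of 42 to caMKL1, differed between 4T1 and LM2 in the test of the difference itself (edgeR, adjusted over all genes tested), against 25.8% and 70.3% of all genes; for caMKL1 the members' share is near that of all genes. Members called in both lines in opposite directions are given here as the log2 ratio in 4T1 minus that in LM2, with its standard error. The fit shares 1 dispersion per gene between the lines, although LM2 libraries varied more, so these errors and p-values can be too small. With MKL1 these were SEMA3F at 1.76 ± 0.18 (adjusted p = 9.63e-07), which rose in 4T1 and fell in LM2, and EFNA5 at 0.68 ± 0.10 (adjusted p = 8.66e-05). The EFNA5 call in 4T1 was lost without control replicate 1 or 2 or MKL1 replicate 3 (adjusted p = 0.0687 to 0.169).

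With caMKL1, 10 members moved in opposite directions. NRP2, a shared co-receptor of class 3 semaphorins, differed by -3.74 ± 0.13 (adjusted p = 4.53e-15), SEMA3E by -3.56 ± 0.14 (adjusted p = 2.02e-14) and SEMA3D by -2.91 ± 0.42 (adjusted p = 4.56e-06), all lower in 4T1. SEMA3B differed by 3.85 ± 0.25 (adjusted p = 3.78e-11) and PLXNA1 by 1.83 ± 0.16 (adjusted p = 3.77e-09), both higher in 4T1. The receptors EPHA1 and EPHB2 and the ligand EFNA1 were lower in 4T1, by -2.70 ± 0.26 (adjusted p = 1.95e-08), -0.76 ± 0.09 (adjusted p = 1.65e-07) and -1.93 ± 0.26 (adjusted p = 1.89e-06). NTN4 was higher in 4T1, by 1.50 ± 0.15 (adjusted p = 3.25e-08). EPHB3 differed by 1.64 ± 0.48 (adjusted p = 0.00471), but passed the filter in LM2 only through control libraries. It had to be lower elsewhere in LM2, so nothing is read from its difference, though it stays among the 10. Species, cell line and construct level differ together here and cannot be told apart.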

How the results depend on the processing

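The number of guidance genes called stayed within 1.5 times its reported value in each comparison under each alternative run, with 1 exception: without control replicate 3 of LM2, MKL1 against control gave 8 calls in place of 15. Leaving out 1 library at a time gave 8 to 19 calls there, 41 to 45 for caMKL1 against control and 38 to 41 for caMKL1 against MKL1 in LM2. In 4T1 it gave 24 to 29 with MKL1, 40 to 43 with caMKL1 and 37 to 39 between them. In the LifeAct experiment it gave 35 to 39 in low, 48 to 51 in high and 36 to 40 between high and low. The differences between lines numbered 13 to 18 with MKL1 and 27 to 31 with caMKL1. Without replicate 1 of MKL1 and of caMKL1 in LM2 the differences between lines numbered 19 and 29, a setting for that comparison added after the data were seen.

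Library totals in place of TMM moved the median log2 ratio of all genes to -0.46 for caMKL1 against control and -0.38 against MKL1 in LM2, to -0.21 and -0.13 in 4T1, to -0.11 for LifeAct high against low and to 0.37 for the caMKL1 difference between lines. Under it 3 ratios turned below 0: EPHB2 (-0.19, adjusted p = 0.0856) and SEMA3C (-0.14, adjusted p = 0.192) for caMKL1 against control in LM2, and ROBO1 (-0.041, adjusted p = 0.754) for caMKL1 against MKL1 in LM2. The share of rises among the calls went from 46.7 to 33.3% for caMKL1 in LM2, from 64.3% to 15 of 30 calls for MKL1 in 4T1 and, for the higher ratios in 4T1 with caMKL1, from 53.3 to 67.9%.

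The replicate numbers in the titles were checked for pairing. Same-numbered libraries correlated above 0.1 in 3 of 9 pairs in LM2, 3 of 9 in 4T1 and 0 of 9 in the LifeAct experiment, so not every pair passed 0.1 in any experiment and the number was not treated as a pairing. In 7, 6 and 0 of the 9 the correlation was highest with the same number, a hint from the data and not from the design. With the replicate number as a block the calls were 18, 45 and 42 in LM2, 29, 42 and 40 in 4T1 and 39, 51 and 39 in the LifeAct experiment, and 17 and 32 for the differences between lines. Depth limits members of a few counts, such as UNC5B in LM2 control libraries.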
